A study of Homo sapiens with 8 samples.

Results

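The insulin-like growth factor (IGF) family was followed in U2OS cells, a human osteosarcoma line, after knockdown of MEPCE, the enzyme that caps 7SK RNA. The family was taken as 9 named genes: the ligand IGF2, the receptors IGF1R and IGF2R, and the binding proteins IGFBP2 to IGFBP7. All 9 were found among the 80311 genes of the deposited table by symbol. These 9 are part of the family and were chosen with earlier results of these data known. IGF1, INSR, IGFBP1 and IGFBPL1 were placed in a separate list of other pathway genes. IGFBP5 was selected on its measured counts in these libraries, as the member that differed most between the cell lines. Differences between lines are therefore described here without a test for every member, and so are the effects of siMePCE on IGFBP5. The 8 libraries of total RNA formed 4 groups of 2 replicates. These were U2OS-Flp-In-TREx cells (Flp-In) with control siRNA (siNC) or with siRNA against MEPCE (siMePCE), and U2OS- AiD-DiVA AsiSI -ER cells (AsiSI) with either siRNA. All cells received siRNA at 0 and 48 h and were lysed at 96 h. The AsiSI cells also received 300 nM 4-hydroxytamoxifen (4-OHT) for 4 h, from 92 h on, which brings the AsiSI nuclease into action. No 4-OHT is stated for Flp-In cells, and the lines were kept in different selection antibiotics, so line, 4-OHT and medium cannot be told apart. The labels do not say that replicates are separate cultures, so p-values rest on a spread that may be technical.

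IGF ligands signal through IGF1R, a receptor tyrosine kinase that passes the signal by IRS adaptors to PI3K, AKT and mTOR. IGF2R, the cation-independent mannose 6-phosphate receptor, binds IGF2 and takes it to lysosomes without kinase signalling. The IGFBPs are secreted proteins that hold IGFs outside the cell and are cut by proteases that release the ligand. In bone, IGFBP5 is bound to matrix and mineral, and IGFBP4 is known as an inhibitor of IGF action on osteoblasts.

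Total counts ran from 41431776 to 53695626 per library. MEPCE, the targeted gene, went from 1712 and 1676 counts to 264 and 234 counts with siMePCE in Flp-In cells, and from 1405 and 1542 to 162 and 102 counts in AsiSI cells. A row on the same strand that covers most of MEPCE held 1.08 times its counts. MEPCE fell with log2 fold changes of -2.97 in Flp-In and -3.30 in AsiSI (SE 0.154 and 0.163, edgeR adjusted p = 1.72e-12 and 9.73e-13). Mitochondrial genes took 5.23% to 5.91% of counts under siNC and 8.24% to 10.55% under siMePCE. Without these rows, and without the rows of RN7SK, RN7SL and ribosomal RNA, every member kept its side of the threshold. Of 9 mesenchymal and osteoblast markers, VIM, SPARC, COL1A1 and RUNX2 had at least 1134 counts in each library. COL1A2 and the osteoblast markers SP7, ALPL, BGLAP and IBSP had 54 counts or fewer. The summed level of the 9 was 1357 to 1405 CPM in Flp-In siNC, 897 to 1047 in Flp-In siMePCE, 1703 to 1938 in AsiSI siNC and 1389 to 1488 in AsiSI siMePCE. The 5 epithelial markers, mostly KRT8 and KRT18, summed in the same order of groups to 248 to 253, 196 to 236, 135 to 142 and 147 to 164 CPM, with KRT19 at 0 to 2 counts. The 3 blood and endothelial markers measured summed to 2.87 to 4.94 CPM in Flp-In cells and 6.81 to 10.7 CPM in AsiSI cells. In Flp-In their siMePCE sums all lay above their siNC sums, while in AsiSI the sums of the siNC and siMePCE groups overlapped. The part of these marker lists in the results was not tested. In bulk RNA, fewer cells of a type and less RNA per cell cannot be told apart.

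Levels are given as CPM, counts scaled to library size with TMM factors, for replicates 1 and 2 of each group. A gene is called changed where the Benjamini-Hochberg adjusted p of edgeR's quasi-likelihood test, over 43321 genes tested, was under 0.05. Of the 9 members, 8 passed the filter on low counts and IGFBP3 did not. Setting IGFBP5 aside, 7 members were tested for siMePCE against siNC in each line. In Flp-In 4 were called, beside 40.9% of all genes tested. Of these 1 was higher and 3 were lower, where 18.1% of all genes were called higher and 22.8% lower. In AsiSI 4 were called, beside 38.2% of all genes. Again 1 was higher and 3 were lower, where the shares of all genes were 16.8% and 21.4%. Among protein-coding genes alone, 20.6% were called higher and 34.3% lower in Flp-In, and 17% and 35.1% in AsiSI. With 7 members, these counts lie near the shares of protein-coding genes. IGF2 rose in both lines, IGFBP4 and IGF2R fell in both, IGFBP7 was called lower in Flp-In and IGFBP6 in AsiSI.

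**Figure D1:**
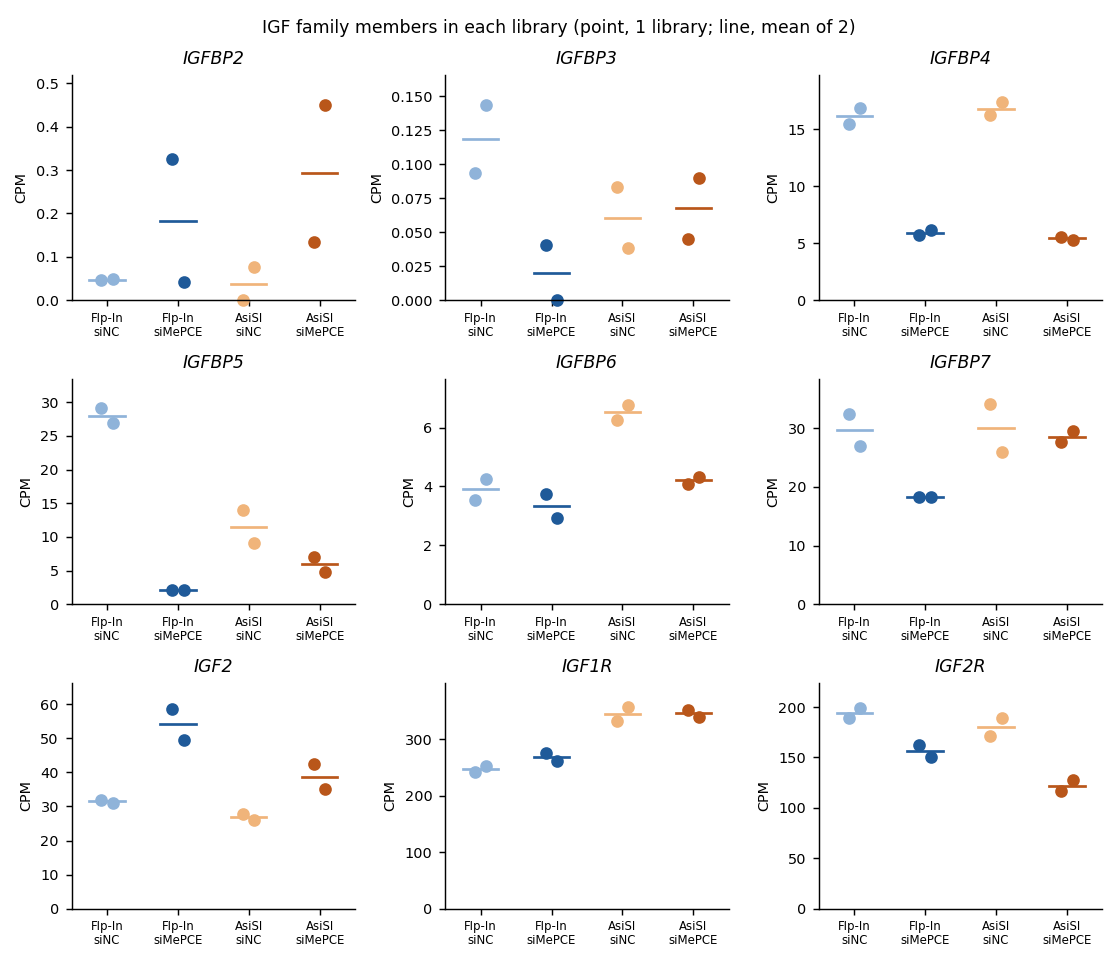
Level of each IGF family member in CPM (vertical axes from 0, each with its own range) in the 4 groups, with a point for each library and a line for the mean of 2. IGFBP4 sat at 15.5 to 17.4 CPM in all siNC libraries and at 5.27 to 6.16 in all siMePCE libraries, while IGFBP2 and IGFBP3 reached at most 0.45 CPM.

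IGF2, the ligand (chromosome 11, 2150342 to 2179621, minus strand, hg19), was expressed in every library. The Flp-In libraries had 32.0 and 31.0 CPM under siNC and 58.7 and 49.7 CPM under siMePCE. In AsiSI it measured 27.8 and 26.1 CPM under siNC and 42.6 and 35.0 CPM under siMePCE. All siMePCE libraries lay above all siNC libraries, also across the lines. The 4 groups did not overlap, in the order Flp-In siMePCE, AsiSI siMePCE, Flp-In siNC and AsiSI siNC from high to low. After siMePCE, IGF2 rose 1.72-fold in Flp-In cells (0.78 on the log2 scale, SE 0.113, edgeR adjusted p = 6.68e-06). The rise in AsiSI cells was 1.44-fold (0.53, SE 0.113, adjusted p = 0.000696). Without each library in turn the log2 fold change stayed between 0.66 and 0.90 in Flp-In and between 0.38 and 0.66 in AsiSI.

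The IGF2 count cannot be split among the transcripts of its locus. ENSG00000284779, a row nested in IGF2 on the same strand, held 0.70 times the counts of IGF2, between 0.673 and 0.724 in the 8 libraries. INS-IGF2, a readthrough row on the same strand, held 0.366 times its counts. Both rows share most of their span with IGF2 and also rose in both lines, ENSG00000284779 by log2 fold changes of 0.76 and 0.55 and INS-IGF2 by 0.77 and 0.52. INS itself, the insulin gene, had a count of 0 in every library. The antisense row IGF2-AS held 0.00255 times the counts of IGF2.

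IGF1R, the signalling receptor (chromosome 15, 99191768 to 99507759, plus strand), was measured with 10365 to 18800 counts, the most of any member, over a span of 316 kb. Its level in Flp-In was 242 and 252 CPM under siNC and 276 and 262 CPM under siMePCE. In AsiSI it was 332 and 357 CPM under siNC and 352 and 340 CPM under siMePCE. Every AsiSI library lay above every Flp-In library. Within a line the effect of siMePCE did not pass the test, with log2 fold changes of 0.13 in Flp-In (SE 0.077, edgeR adjusted p = 0.204) and 0.01 in AsiSI (SE 0.0768, adjusted p = 0.965). With genes kept only at a CPM of at least 1 in at least 2 libraries, the Flp-In value was 0.21 and passed (adjusted p = 0.0162). SYNM-AS1, which overlaps the end of IGF1R on the other strand, held 0.285 times its counts and fell in both lines (log2 fold changes -0.56 and -0.60), so IGF1R reads in the shared 10382 bases cannot be assigned.

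IGF2R, the receptor that clears IGF2 (chromosome 6, 160390114 to 160534539, plus strand), fell in both lines. Under siNC it measured 189 and 199 CPM in Flp-In cells and 171 and 189 CPM in AsiSI cells. Under siMePCE it measured 162 and 151 CPM and 116 and 127 CPM. The siNC groups of the lines nearly touched at 189 CPM, and every siMePCE library lay below them. IGF2R fell 1.24-fold in Flp-In cells (-0.31 on the log2 scale, SE 0.0844, edgeR adjusted p = 0.00497). In AsiSI cells the fall was 1.48-fold (-0.57, SE 0.0847, adjusted p = 1.13e-05). The Flp-In call was lost without replicate 2 of siNC (adjusted p = 0.057) or of siMePCE (adjusted p = 0.0656). AIRN, a noncoding RNA antisense to IGF2R, held 0.0052 times its counts. IGF2 and IGF2R thus had opposite directions in each line.

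IGFBP5 (chromosome 2, 217536828 to 217560272, minus strand) is described without a test. Its Flp-In libraries had 29.1 and 26.9 CPM under siNC and 2.15 and 2.19 CPM under siMePCE, or 1248 and 1126 against 106 and 106 counts. In AsiSI it measured 14.0 and 9.09 CPM under siNC and 7.07 and 4.82 CPM under siMePCE, or 672 and 478 against 314 and 214 counts. The 4 groups did not overlap, and their order was Flp-In siNC, AsiSI siNC, AsiSI siMePCE and Flp-In siMePCE. The lines changed places: under siNC IGFBP5 was 2.43-fold lower in AsiSI than in Flp-In, and under siMePCE it was 2.74-fold higher. The fitted effect of siMePCE was -3.69 on the log2 scale in Flp-In (12.9-fold lower) and -0.95 in AsiSI (1.94-fold lower), and these effects differed by 2.73. Replicates stood close in Flp-In siMePCE (SD 0.0308 CPM, n = 2) and further apart in AsiSI siNC (SD 3.47 CPM, n = 2). Leaving out AsiSI siNC replicate 1 gave a difference of 3.08 and leaving out AsiSI siMePCE replicate 1 gave 2.43, the range over all 8 libraries left out in turn. Its log2 effect in AsiSI then ran from -1.26 to -0.61, and in Flp-In from -3.74 to -3.64.

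Next to IGFBP5, the difference in effect between lines (AsiSI minus Flp-In) was 0.92 for IGFBP2, which rests on 0 to 20 counts and ran from -0.18 to 4.88 without each library in turn, and 0.63 for IGFBP7. The other 5 members ran from -0.41 for IGFBP6 to -0.12 for IGF1R. LINC01921, a long noncoding RNA on the other strand, starts inside IGFBP5 and shares 1146 bases with it. Its row held 0.34 to 5.5 times the counts of IGFBP5. LINC01921 measured 10.5 and 9.17 CPM under siNC and 7.42 and 10.9 CPM under siMePCE in Flp-In cells, and 18.5 and 21.2 CPM under siNC and 22.9 and 26.5 CPM under siMePCE in AsiSI cells. Its levels were higher in all AsiSI libraries. Its log2 fold changes after siMePCE did not pass the test, at -0.10 in Flp-In (SE 0.163, edgeR adjusted p = 0.645) and 0.31 in AsiSI (SE 0.153, adjusted p = 0.117). How many reads the rows have in common is not known from total counts.

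IGFBP4 (chromosome 17, 38599702 to 38613977, plus strand) had nearly the same levels in both lines. The siNC libraries had 15.5 and 16.8 CPM for Flp-In and 16.3 and 17.4 CPM for AsiSI. Under siMePCE it measured 5.72 and 6.16 CPM in Flp-In and 5.59 and 5.27 CPM in AsiSI. Every siMePCE library lay below every siNC library. IGFBP4 fell 2.72-fold in Flp-In cells (-1.44 on the log2 scale, SE 0.145, edgeR adjusted p = 4.1e-08). Its fall in AsiSI cells was 3.10-fold (-1.63, SE 0.146, adjusted p = 7.42e-09). It was the largest fall among the 7 tested members in each line, and no gene row shared more than 4 bases with it. Without each library in turn its log2 fold change lay between -1.51 and -1.38 in Flp-In and between -1.68 and -1.57 in AsiSI.

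The sequences in front of the start sites of IGFBP5, IGFBP4 and IGF2R are shown because these members had lower levels under siMePCE in both lines. Each run is the 250 bases before the RefSeq start (GRCh38.p14), 5′ to 3′ on the gene's strand, at chr2:216695550-216695799 (minus strand), chr17:40443200-40443449 (plus strand) and chr6:159968832-159969081 (plus strand). Capitals mark matches on either strand to a TATA box (TATAAA), to TATTTAA, to a GC box (GGGCGG), to an E-box (CANNTG) or to an AP-1 site (TGANTCA).
IGFBP5: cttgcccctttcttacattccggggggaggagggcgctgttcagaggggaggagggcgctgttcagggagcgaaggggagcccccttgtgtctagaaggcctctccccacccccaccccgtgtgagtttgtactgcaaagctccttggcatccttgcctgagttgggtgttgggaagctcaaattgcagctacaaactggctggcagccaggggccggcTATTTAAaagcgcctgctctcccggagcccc
IGFBP4: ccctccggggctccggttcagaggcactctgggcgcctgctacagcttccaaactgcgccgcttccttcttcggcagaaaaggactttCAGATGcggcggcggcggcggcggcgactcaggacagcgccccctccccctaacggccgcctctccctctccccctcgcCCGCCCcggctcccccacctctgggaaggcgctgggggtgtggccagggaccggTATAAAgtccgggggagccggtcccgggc
IGF2R: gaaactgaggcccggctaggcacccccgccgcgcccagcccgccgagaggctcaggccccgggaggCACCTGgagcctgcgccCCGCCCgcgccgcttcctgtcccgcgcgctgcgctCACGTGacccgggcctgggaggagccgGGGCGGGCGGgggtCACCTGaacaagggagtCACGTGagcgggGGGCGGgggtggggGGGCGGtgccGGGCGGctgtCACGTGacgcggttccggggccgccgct
IGFBP5 held TATTTAA, starting 31 bases before the start, and none of the other motifs. IGFBP4 held TATAAA 29 bases before the start, with 1 GC box and 1 E-box. IGF2R held no TATA motif, 6 GC boxes of which some overlap, and 5 E-boxes. Of 35114 RefSeq windows of the same length, 10.7% held TATAAA, 4.17% TATTTAA, 42.6% a GC box, 61.8% an E-box and 6.57% an AP-1 site. TATTTAA was added to the search after the IGFBP5 sequence had been read. The windows held 8 CpG pairs in IGFBP5, 24 in IGFBP4 and 33 in IGF2R, where the median window held 11. IGF1R, which did not pass the test in either line, held 48 CpG pairs, 2 GC boxes and no E-box. IGFBP3 held 32 CpG pairs, 2 GC boxes and 1 E-box, and IGFBP6 held 9 CpG pairs, 1 GC box and 1 E-box. The 3 IGFBP2 windows held 4 to 22 CpG pairs, at most 1 GC box and at most 3 E-boxes. None of these 6 windows held a TATA box, the TATTTAA motif or an AP-1 site. RefSeq windows were matched for 7 of the 9 members, without IGFBP7 and IGF2.

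IGFBP7 (chromosome 4, 57896939 to 57976551, minus strand), a family member with low affinity for IGFs, measured 32.4 and 27.0 CPM under siNC and 18.3 and 18.2 CPM under siMePCE in Flp-In cells. In AsiSI it measured 34.1 and 26.0 CPM under siNC and 27.6 and 29.5 CPM under siMePCE. Both Flp-In siMePCE libraries lay below all the others, and the remaining groups overlapped. IGFBP7 fell 1.63-fold in Flp-In cells (-0.70 on the log2 scale, SE 0.13, edgeR adjusted p = 0.000147), while in AsiSI the value was -0.07 (SE 0.128, adjusted p = 0.695). The difference between these effects, given above, belongs to the comparison that chose IGFBP5 and was not tested. POLR2B, a polymerase subunit gene on the other strand, ends inside IGFBP7 over 386 shared bases and held 8.66 times its counts. The log2 fold changes of POLR2B, -0.06 and -0.11, did not pass the test (edgeR adjusted p = 0.584 and 0.309). POLR2B had 200 and 199 CPM under siNC and 198 and 184 CPM under siMePCE in Flp-In cells. In AsiSI cells it had 280 and 263 CPM, then 264 and 240 CPM. Part of the IGFBP7 counts may belong to POLR2B, which was not tested.

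IGFBP6 (chromosome 12, 53491220 to 53496129, plus strand), which prefers IGF2 over IGF1, measured 3.54 and 4.26 CPM under siNC and 3.75 and 2.94 CPM under siMePCE in Flp-In cells. In AsiSI it measured 6.27 and 6.77 CPM under siNC and 4.10 and 4.32 CPM under siMePCE. AsiSI siNC stood above all other libraries. IGFBP6 fell 1.55-fold in AsiSI cells (-0.63 on the log2 scale, SE 0.196, edgeR adjusted p = 0.0136), and the value in Flp-In was -0.22 (SE 0.204, adjusted p = 0.406). The AsiSI call was lost without AsiSI siNC replicate 2 (adjusted p = 0.0828) or AsiSI siMePCE replicate 1 (adjusted p = 0.0589). No other gene row overlapped IGFBP6.

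IGFBP2 and IGFBP3, both abundant IGF carriers in blood, were near the limit of detection. IGFBP3 (chromosome 7, 45951844 to 45961473, minus strand) had, under siNC, 4 and 6 counts in Flp-In cells and 4 and 2 in AsiSI cells, and under siMePCE 2 and 0 counts and 2 and 4 counts. The count of 0 allows up to 3 counts, or 0.062 CPM, by counting error alone. IGFBP2 (chromosome 2, 217497551 to 217529159, plus strand) had, under siNC, 2 and 2 counts in Flp-In cells and 0 and 4 in AsiSI cells, and under siMePCE 16 and 2 counts and 6 and 20 counts. It passed the filter only through 1 siMePCE library of each line. Its values did not pass the test (log2 fold changes 1.90, SE 1.24, edgeR adjusted p = 0.233 in Flp-In, and 2.82, SE 1.2, adjusted p = 0.0691 in AsiSI). Since the filter kept IGFBP2 only for its high siMePCE libraries, it favoured a higher value there, and these tests support no direction. The same holds for the AsiSI fits without siNC replicate 2 (adjusted p = 0.0391) or siMePCE replicate 1 (adjusted p = 0.0438), where the threshold was passed. Without Flp-In siMePCE replicate 1, the library with 16 counts, its Flp-In log2 fold change was -0.18. The ends of IGFBP2 and IGFBP5 lie 7.67 kb apart on chromosome 2. At these depths no change in IGFBP3 was detectable.

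**Figure D2:**
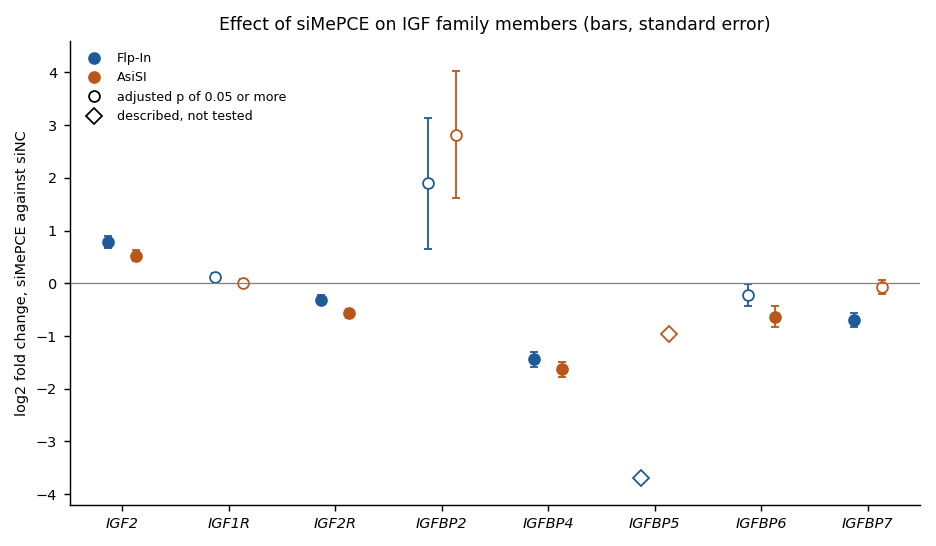
Log2 fold change of siMePCE against siNC (vertical axis) for the 8 members that passed the filter, in Flp-In (blue) and AsiSI (orange), with standard errors as bars. Filled points passed the edgeR test, open circles did not, and the diamonds of IGFBP5 are described without a test. IGF2 lies above 0 in both lines, and IGFBP4 at -1.44 and -1.63.

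Levels of different members were set side by side per kb of the counted span, which includes introns. In Flp-In siNC, IGF2R had 1.35 CPM per kb, IGFBP5 1.20, IGFBP4 1.13 and IGF2 1.08 CPM per kb. IGFBP6 and IGF1R followed with 0.795 and 0.781 CPM per kb and IGFBP7 with 0.373 CPM per kb. IGFBP3 and IGFBP2 had 0.0123 and 0.00149 CPM per kb. In Flp-In siMePCE, IGF2 was highest at 1.85 CPM per kb and IGFBP5 had 0.0926 CPM per kb. The order differed in AsiSI siNC, where IGFBP6 had 1.33, IGF2R 1.25, IGFBP4 1.18, IGF1R 1.09 and IGF2 0.92 CPM per kb, ahead of IGFBP5 at 0.492 and IGFBP7 at 0.377. In AsiSI siMePCE, IGF2 was again highest at 1.33 CPM per kb, and IGFBP5 had 0.254.

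AsiSI libraries were also set against Flp-In libraries within each siRNA, as a description. Under siNC the groups did not overlap for 5 of 8 members, beside 64.3% of all genes tested (31.6% higher and 32.8% lower in AsiSI). IGFBP6 and IGF1R were higher in AsiSI, by 1.67-fold and 1.40-fold, and IGFBP5, IGF2 and IGF2R were lower, IGF2 by 1.17-fold and IGF2R by 1.08-fold. Under siMePCE 7 of 8 were apart, beside 63% of all genes (31% higher and 32% lower). IGFBP5, IGFBP7, IGF1R and IGFBP6 were then higher in AsiSI, with IGFBP7 at 1.56-fold, and IGF2, IGF2R and IGFBP4 were lower, by 1.40-fold, 1.29-fold and 1.09-fold. IGFBP5 was on different sides in these comparisons, while IGF2, IGF2R, IGF1R and IGFBP6 kept their side. Both counts of members apart include IGFBP5, which was chosen for its difference between lines. The 8 members also include IGFBP2, which passed the filter only through siMePCE libraries. These counts therefore support nothing when set beside the shares of all genes.

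The 5 genes whose log2 CPM over the 8 libraries was most like that of IGFBP5 were LINC00857, PSLNR, APH1B, PPP1R13L and NYNRIN, with Pearson r from 0.979 to 0.991. They were taken from 7534 genes with a symbol, a mean of at least 5 CPM and no overlapping row of 0.5 times their counts or more. The 8 points are 4 groups of 2, so this is a likeness of group means. Their ranges were narrower than that of IGFBP5. NYNRIN went from 23.4 ± 1.60 CPM under siNC to 5.59 ± 0.891 under siMePCE in Flp-In cells, and from 16.5 ± 1.01 to 8.96 ± 0.862 in AsiSI cells (SD, n = 2). LINC00857, a noncoding RNA with the highest r, ran only from 8.38 ± 0.0756 to 10.7 ± 0.00193 CPM (SD, n = 2).

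**Figure D3:**
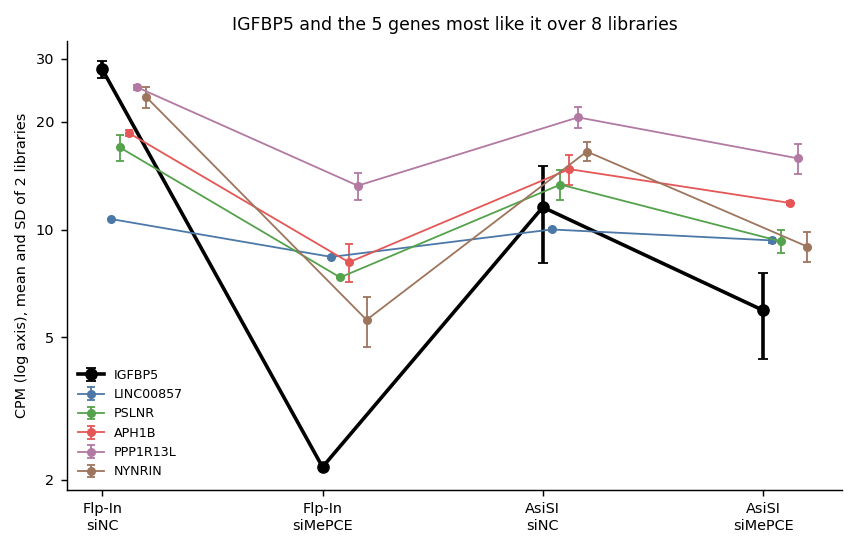
Mean CPM on a log axis, with the SD of 2 libraries as bars, in the 4 groups for IGFBP5 (black) and the 5 genes most like it. All 6 are highest in Flp-In siNC and lowest in Flp-In siMePCE, a likeness by which the 5 were chosen. IGFBP5, itself chosen for its difference between lines, spans the widest range, from 28.0 to 2.17 CPM.

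The rest of the pathway was read from a list of 57 other genes, of which 55 passed the filter. In Flp-In 12 rose and 22 fell, or 21.8% and 40% of those tested, with a median log2 fold change of -0.07. In AsiSI 11 rose and 19 fell, or 20% and 34.5%, with a median of -0.02. The medians of all genes tested were 0.03 and 0.04, and those of protein-coding genes -0.10 and -0.14. Among protein-coding genes 20.6% rose and 34.3% fell in Flp-In, and 17% rose and 35.1% fell in AsiSI. Of all genes tested, 18.1% rose and 22.8% fell in Flp-In, and 16.8% rose and 21.4% fell in AsiSI. With 55 genes, the shares in both lines lie near those of protein-coding genes.

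Among proteases that cut IGFBPs and their inhibitors, 2 of 7 rose and 2 fell in Flp-In, and 2 rose and 3 fell in AsiSI. Among protein-coding genes 20.6% rose and 34.3% fell in Flp-In, and 17% and 35.1% in AsiSI (of all genes 18.1% and 22.8%, and 16.8% and 21.4%), so counts among 7 genes lie near the background. HTRA1, a secreted serine protease with IGFBP5 among its known substrates, measured 23.6 and 17.3 CPM under siNC and 4.46 and 4.74 CPM under siMePCE in Flp-In cells. In AsiSI cells it measured 7.92 and 7.22 CPM and then 1.53 and 2.52 CPM. It fell in both lines, with log2 fold changes of -2.16 and -1.90 (SE 0.192 and 0.212, edgeR adjusted p = 7.04e-09 and 1.96e-07). A row on the other strand of HTRA1 held 0.073 to 1.21 times its counts, so part of its lowest values may belong to that row. ADAM12, a metalloprotease that cuts IGFBPs, also fell in both lines (-0.40 and -0.73). PAPPA, the protease of IGFBP4, rose in AsiSI (0.52, edgeR adjusted p = 0.000437) and measured 0.07 in Flp-In. PAPPA2, a protease of IGFBP5, measured 4.62 and 5.55 CPM under siNC and 6.61 and 8.54 CPM under siMePCE in Flp-In cells. Its AsiSI values were all higher, at 52.1 and 75.5 CPM under siNC and 37.4 and 53.7 CPM under siMePCE. PAPPA2 was called higher in Flp-In (log2 fold change 0.58, edgeR adjusted p = 0.0429) and lower in AsiSI (-0.49, adjusted p = 0.0418), where its groups overlapped. With the replicate number as a block, both calls were kept (edgeR adjusted p = 0.000457 in Flp-In and 0.000259 in AsiSI). For PAPPA2, the Flp-In call was lost without siNC replicate 1 (adjusted p = 0.228), siNC replicate 2 (0.052) or siMePCE replicate 2 (0.287), with DESeq2 (0.116) and with halved counts (0.0945). Its AsiSI call was lost without siNC replicate 2 (0.489) or siMePCE replicate 1 (0.295), and under 5 other settings (0.0525 to 0.24). STC2, a secreted inhibitor of PAPPA, rose 5.88-fold in Flp-In and 2.33-fold in AsiSI from levels of 0.0706 and 0.579 CPM. The Flp-In fold is uncertain, since STC2 had 4 and 2 counts under siNC, near the limit of detection, and 24 and 18 under siMePCE. Its AsiSI call was lost without siNC replicate 1 (adjusted p = 0.0832) or 2 (0.132) or siMePCE replicate 2 (0.142), with DESeq2 (0.0573) and without a filter (0.0509).

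The list of receptor adaptors also holds phosphatases (PTPN1 and PTPN11) and exchange factors (SOS1 and SOS2). Of its 13 genes, 6 fell and 3 rose in Flp-In, and 5 fell and 3 rose in AsiSI. The shares that fell were 46.2% and 38.5%, beside 34.3% and 35.1% of protein-coding genes (22.8% and 21.4% of all genes). With 13 genes, the counts in both lines lie near the shares of protein-coding genes. The share that rose was 23.1% in both lines, beside 20.6% and 17% of protein-coding genes. IRS1, the main adaptor of IGF1R, had 102 and 99.4 CPM under siNC and 42.6 and 44.8 CPM under siMePCE in Flp-In cells, a fall of 2.30-fold. In AsiSI cells IRS1 had 152 and 164 CPM, then 48.6 and 51.6 CPM, a fall of 3.15-fold. PTPN11, the phosphatase SHP2, fell 2.67-fold and 3.33-fold. IRS4, a further adaptor, rose 3.86-fold from 1.37 CPM in Flp-In and 2.62-fold from 0.56 CPM in AsiSI. RPL6, which overlaps PTPN11 over 488 bases on the other strand, held 1.03 times its counts. A row on the other strand of IRS1 held 0.438 times the counts of IRS1. A same-strand row held 0.381 times the counts of IRS4, and IRS4-AS1, on the other strand, held 0.247 times. The other adaptors that rose were GRB10 in both lines (0.39 and 0.66), GRB14 in Flp-In (0.64) and GAB1 in AsiSI (0.37). SHC1 (-0.60 and -0.92), CRK (-0.49 and -0.45) and PTPN1 (-0.24 and -0.35) fell in both lines, and SOS1 in Flp-In (-0.23).

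PI3K, AKT and mTOR genes fell in 12 of 23 and rose in 4 in Flp-In, and fell in 11 and rose in 3 in AsiSI. The shares that fell, 52.2% and 47.8%, stood beside 34.3% and 35.1% of protein-coding genes (22.8% and 21.4% of all genes). The shares that rose, 17.4% and 13%, stood beside 20.6% and 17% of protein-coding genes. AKT1, a kinase downstream of PI3K, had 35.0 and 35.6 CPM under siNC and 12.7 and 10.9 CPM under siMePCE in Flp-In cells. AsiSI cells had 29.9 and 31.0 CPM of AKT1, then 9.28 and 9.28 CPM. The falls were 2.99-fold and 3.28-fold. A row nested in AKT1 on the other strand held 0.348 times the counts of AKT1. MLST8, a subunit of mTOR complexes, had log2 fold changes of -1.59 and -1.90, and INPPL1, the lipid phosphatase SHIP2, -1.51 and -1.20. PIK3R2, a regulatory subunit of PI3K, had -1.12 and -1.19, and TSC2, an inhibitor of mTOR signalling, -0.94 and -1.05. A same-strand row held 1.32 times the counts of PIK3R2, and PKD1 held 0.74 times those of TSC2, so both values may hold reads of other genes. PDPK1 (-0.72 and -0.87), MTOR (-0.71 and -0.76) and AKT2 (-0.42 and -0.52) fell by less. PIK3CA, a catalytic subunit of PI3K (0.45 and 0.41), and RICTOR, a subunit of mTOR complex 2 (0.51 and 0.42), rose in both lines. FOXO factors, which AKT keeps out of the nucleus, rose in 2 of 4 in both lines, and FOXO6 fell in Flp-In (-0.85). The shares of genes that rose were 18.1% and 16.8% of all genes and 20.6% and 17% of protein-coding genes, and a list of 4 is too short to set against them. FOXO1 had 23.9 ± 0.141 CPM under siNC and 68.3 ± 0.0144 CPM under siMePCE in Flp-In cells (SD, n = 2), a rise of 2.86-fold. AsiSI cells had 40.8 and 27.6 CPM of FOXO1, then 70.6 and 74.0 CPM, a rise of 2.12-fold. FOXO3 rose 2.27-fold and 1.56-fold. Same-strand rows held 0.787 times the counts of FOXO1 and 0.366 times those of FOXO3.

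IGF1, the other IGF ligand, was called higher in AsiSI (0.37 on the log2 scale, SE 0.121, edgeR adjusted p = 0.0189), while it measured -0.29 in Flp-In (SE 0.125, adjusted p = 0.0671). It was the only call among the 5 other ligands, receptors and binding proteins tested. Of the IGF2 mRNA binding proteins, IGF2BP3 rose (0.48) and IGF2BP1 fell (-0.65) in Flp-In, and none of the 3 passed the test in AsiSI. IGF1, PAPPA, ADAM12, FOXO6, the IGF2BP genes and the smaller changes in the adaptor and PI3K lists lie outside the rule for named genes. They were named after their values were seen. IGFBP1 had 4 counts in 1 library and 0 in the others.

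**Figure D4:**
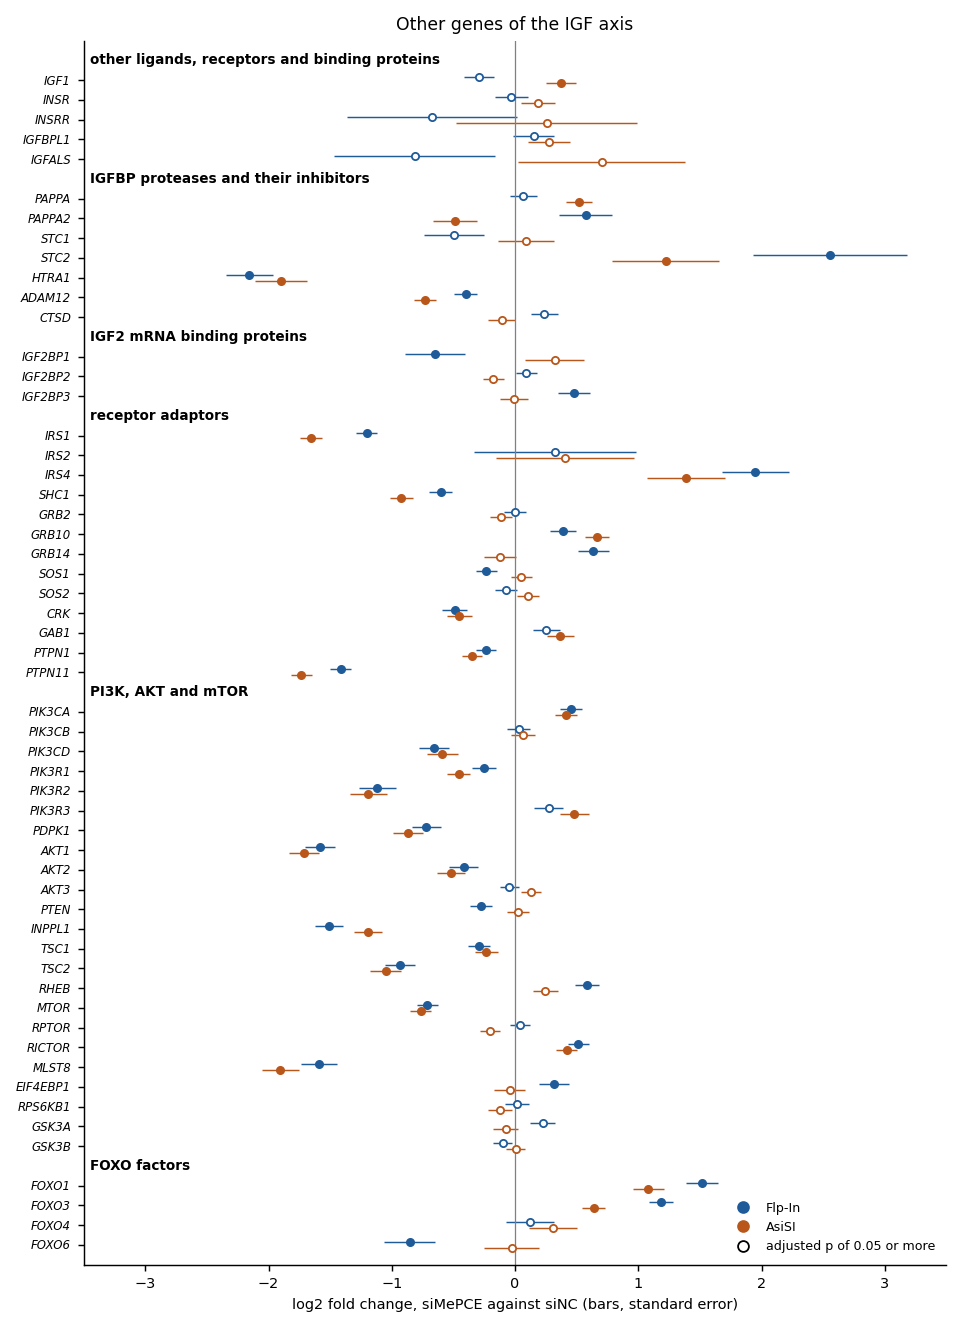
Log2 fold change of siMePCE against siNC (horizontal axis) for the 55 other genes of the IGF axis that passed the filter, by role, in Flp-In (blue) and AsiSI (orange), with standard errors as bars and open circles where the adjusted p was 0.05 or more. IRS1, PTPN11, AKT1, MLST8 and HTRA1 lie at or below -1.20 in both lines, and FOXO1 lies above 1 in both.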

How the data were processed

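Libraries were directional and made from total RNA depleted of ribosomal RNA, per the labels' protocols. Read trimming, alignment and counting used Trim Galore, STAR and featureCounts, with FastQC and SAMtools, on hg19, per the submitters' processing notes. Versions and settings are not given in the sources used here. The authors deposited raw counts per gene. Each gene was counted over its whole span, introns included, by the table's own lengths, and overlapping genes cannot be told apart. In rows without overlap and a mean count of 2 to 20, 85% of counts were even, as were all 8 counts of IGFBP2 to IGFBP5, so mates may have been counted separately and counting errors are then larger than the counts give. Counts halved were therefore tried.

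Symbols were matched for 50.8% of rows by identifier, and protein-coding types came from the GENCODE annotation. The 43321 genes that filterByExpr kept entered an edgeR 4.0.16 fit with TMM factors and a mean for each of 4 groups (glmQLFit, robust estimation, R 4.3.3). Each SE is the absolute log2 change over the square root of F. Scripts were tested on simulated data. Alternatives were DESeq2 1.42.0, its size factors, other filters, removal of abundant noncoding rows, a replicate block, fits of 4 libraries and leaving out each library. Robust estimation off and halved counts were added after seeing the data. Members and lists were chosen with earlier results of these data known. Named were all members, MEPCE, the top overlapping rows, list genes called in both lines that changed by 1 or more (log2) in either line or went in opposite directions, and the 5 genes most like IGFBP5. A like list for IGFBP3 was not made, since it had at most 6 counts. The row of PECAM1, a marker, was not matched.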

Additional observations from a re-analysis of the deposited data

How the results depend on the processing

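Directions of the 5 members called in 1 or both lines were the same under every alternative in the line of the call. Under DESeq2, its size factors, the removal of mitochondrial and abundant noncoding rows, robust estimation off and halved counts, each line had 1 member higher and 3 lower, as it did in the fits of 4 libraries. The number higher was 2 in Flp-In with a CPM of at least 1 in at least 2 libraries, where IGF1R passed. Without each library in turn, the number higher in AsiSI ran from 1 to 2, with 2 without AsiSI siMePCE replicate 1 or AsiSI siNC replicate 2, where IGFBP2 passed. IGFBP2 was kept by the filter only through siMePCE libraries, so this extra call supports nothing. The number lower ran from 2 to 3 in each line. For the other IGF axis genes, counts under the other settings were 11 to 16 higher and 18 to 23 lower in Flp-In, and 10 to 13 and 17 to 20 in AsiSI. Without each library in turn they were 8 to 15 and 16 to 22 in Flp-In, and 8 to 11 and 17 to 20 in AsiSI.

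With the replicate number as a block, 1 member was higher and 3 were lower in each line, and no member changed its call. Differences between replicates 1 and 2 correlated positively but weakly in every pair of groups (r from 0.0415 to 0.239). The numbers were not taken as a pairing in the main fit. Over all genes, the block gave 19056 calls in Flp-In and 17958 in AsiSI, against 17711 and 16531 in the main fit. Depth limits IGFBP2 and IGFBP3, with at most 20 and 6 counts.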
